A study of Mus musculus with 8 samples.

Results

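Integrins and the proteins that couple them to actin and to signalling were examined in RAW264.7, a transformed mouse line of macrophage type, cultured on PEEK (polyetheretherketone, an orthopaedic implant polymer). The members are 37 genes given by name, 7 integrin alpha and 4 integrin beta subunits, 8 linkers, 5 kinases, 7 adaptors, 5 genes of the Rap1 switch that activates integrins, and the hyaluronan receptor gene Cd44. They were found by symbol among 26848 genes in the deposited table. All 37 were present, and all 37 passed the filter on low counts. Itgax and Parva did not pass it with a minimum count of 40 or with all counts divided by 4. The surface was smooth in 4 libraries and was nano/microstructured in the other 4, called structured here. The labels name no agent, genotype or culture time that differs between the surfaces, and all 8 libraries come from the same cell line, so the groups model 1 cell line and not primary cells or an implant site. Library totals ran from 64479829 to 73098735 count units. Libraries are numbered as in their deposited library names. The titles label all but library 1 of each surface as biological replicates, and they name no separate cultures. P-values here cover the spread among these libraries only, which could be technical.

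An integrin is a pair of an alpha and a beta chain that binds matrix or a partner cell on the outside and actin linkers on the inside. Beta2 chains pair with the leukocyte alpha chains, alpha4 pairs with beta1 or beta7, alpha5 with beta1 for fibronectin, and alphav with beta5 among others. Rap1, a small GTPase, recruits talin to the beta tail through the adaptor RIAM, and kindlin-3 binds the same tail. Focal adhesion kinase and its relative PYK2, with Src family kinases, then pass the signal on through paxillin, p130Cas and their partners. Macrophages use this machinery to attach, spread and build podosomes on solid surfaces, and the comparison asks whether its transcripts differ with the topography of the surface.

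The leukocyte and macrophage character of the libraries was checked first. Of 11 macrophage markers, 10 had a mean of at least 1 CPM, that is, 1 count per 1000000 of the scaled library size. Csf1r, the M-CSF receptor gene, ranged from 1567 to 1736 CPM over the 8 libraries. Mertk, by contrast, stayed at or below 0.268 CPM. Markers of other cells were also measured. The summed level of 20 hepatocyte genes was 79.7 to 406 CPM in smooth and 155 to 566 CPM in structured libraries. That of 20 skeletal muscle genes was 26.2 to 77.3 and 18.8 to 28.04 CPM. Of 17 tested muscle genes, 16 had a negative log2 fold change (structured minus smooth, median -2.67) and 3 fell. Of 20 tested hepatocyte genes, only 1 had a negative log2 fold change (median 0.66), and none was called in either direction. The muscle sums include Tnni2, at 9.72 to 15.7 CPM in smooth and 12.9 to 14.6 CPM in structured libraries. The 16 neutrophil genes in the table summed to 59.7 to 69.8 CPM in smooth and 70.2 to 111 CPM in structured libraries. Without Mmp9, at 48.9 to 64.0 CPM, and Csf3r, both also expressed by macrophages, the sums were 0.551 to 2.31 and 14.9 to 55.4 CPM. Lcn2, kept in these sums, was at 0.396 to 1.64 CPM in smooth and 11.1 to 17.4 CPM in structured libraries. In structured 1 it held 11.1 of the 14.9 CPM. Of 7 tested neutrophil genes, 5 rose. Mmp8, a granule collagenase gene, was at 0 in all smooth libraries and at 0.750, 12.2, 12.0 and 12.8 CPM in structured libraries 1 to 4. Ngp, a granule protein gene, was likewise at 0 and then at 0.159, 5.33, 4.99 and 5.57 CPM, and S100a9 was at or below 0.0600 CPM and then at 1.99 to 14.2 CPM. Structured 1 was the lowest structured library for these 3 genes. The precursor granule genes Elane and Mpo were at or below 0.0590 CPM in all 8 libraries. Camp, Prtn3, Ltf, Retnlg, Fcnb and Ltb4r1, also in the neutrophil list, were at or below 0.428 CPM in all 8. Lymphocyte genes other than Ighm summed to at most 2.31 CPM, 7 platelet genes to at most 2.53 CPM and 10 fibroblast or osteoblast genes to at most 4.80 CPM. All 8 libraries are labelled as the same cell line, and where the transcripts of other cell types came from was not tested. In bulk RNA, fewer cells of a type and less RNA per cell cannot be told apart.

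The cells carried a restricted set of integrin chains. Levels between genes are compared here as FPKM, which is scaled to gene length and depth by the authors. Itga4, the alpha4 chain of the VCAM-1 and fibronectin receptors, led with 72.4 ± 7.84 FPKM (SD over the 8 libraries), followed by Itgb2, the shared beta chain of leukocyte integrins, with 64.6 ± 3.72 FPKM. The ranges of these 2 genes overlapped. Itgb1 came next at 44.2 ± 2.18 FPKM, apart from its neighbours on both sides. Itgam, which encodes the CD11b chain of the complement receptor Mac-1, had 24.1 ± 1.51 FPKM and the fibronectin receptor chain gene Itga5 22.8 ± 1.86 FPKM, with overlapping ranges. Below them lay Itgb7 at 12.2 ± 1.73 FPKM and Itgb5 at 11.7 ± 1.17 FPKM, which overlapped each other, and then the vitronectin receptor chain gene Itgav at 5.40 ± 0.197 FPKM.

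The remaining alpha chains were scarce. Itga6, a laminin receptor chain, had 0.951 FPKM and Itgal, the CD11a chain of LFA-1, 0.801 FPKM. Itgax, the CD11c chain used as a dendritic cell marker, had a mean of 0.0336 FPKM and 100 count units over all 8 libraries. The alpha partners of Itgb2 among the members summed to 25.7 ± 1.74 FPKM on smooth and 24.3 ± 1.2 FPKM on structured PEEK (n = 4 each), against 66.5 ± 3.28 and 62.7 ± 3.43 FPKM for Itgb2 itself. Of 14 further integrin subunit genes in the table, 11 had a mean under 0.1 FPKM, among them Itgb3, the osteoclast and platelet beta chain, at 0.0871 FPKM. The most abundant of these further subunits was Itga7 at 1.37 FPKM.

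Among the cytoplasmic members, Tln1, the talin that links beta tails to actin, was the most abundant at 118 ± 10.03 FPKM (SD over 8 libraries), followed by Rap1b at 96.4 ± 5.68 FPKM. The leukocyte parvin gene Parvg had 49.9 FPKM and its widely expressed relative Parva only 0.0179 FPKM. Lyn was the main Src family member at 40.5 FPKM, while Src itself had 0.903 FPKM and Fgr 1.05 FPKM, overlapping each other. PYK2, encoded by Ptk2b, had 16.9 ± 1.98 FPKM and the focal adhesion kinase gene Ptk2 9.15 ± 0.325 FPKM. Vcl, which encodes vinculin, was low at 3.50 FPKM, and so were Zyx, the zyxin gene, at 3.19 FPKM and the docking protein genes Bcar1 (p130Cas) and Nedd9 (HEF1) at 1.04 and 0.613 FPKM.

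**Figure D1:**
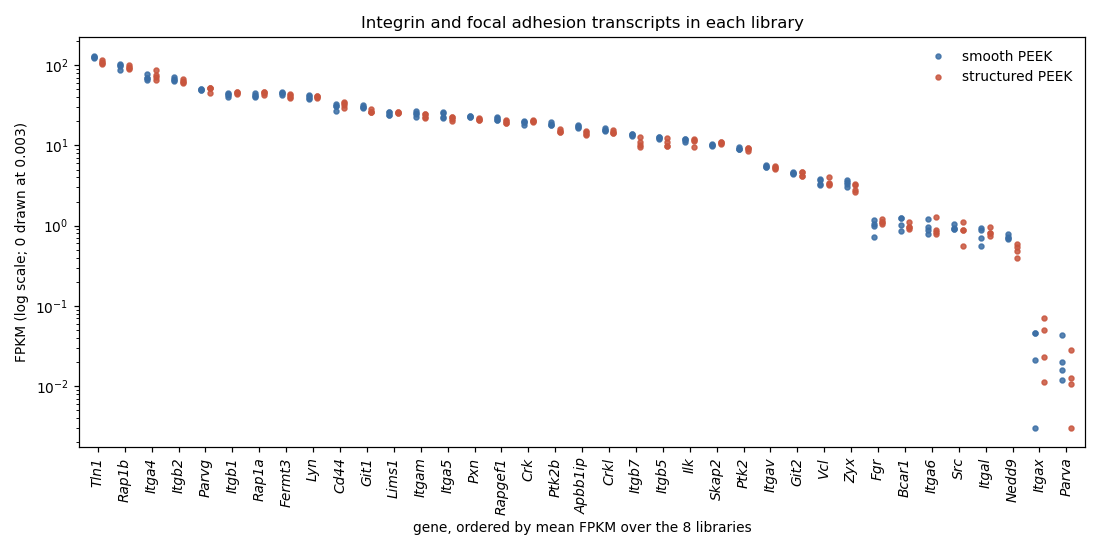
FPKM of each of the 37 genes in each of the 8 libraries on a log axis, with genes ordered by mean level and 4 points per surface. Tln1 leads with a mean of 118 FPKM, the members spread over more than 3 orders of magnitude, and Itgax and Parva lie far below the rest.

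Of the 37 members 5 fell on structured PEEK and none rose, by edgeR's quasi-likelihood test with Benjamini-Hochberg (BH) adjustment at 0.05 over all 16006 tested genes. The 5 are Ptk2b, Tln1, Apbb1ip, Git1 and Itgb7. They make up 13.5% of the members, where 2.75% of all tested genes were called lower and 1.01% were called higher. Most members are abundant, and among genes with a mean of at least 10 CPM 4.85% were called lower, against 5 of 29 members (17.2%), and 1.38% were called higher. The members were chosen with earlier results of these data in view, so these shares are descriptions. The other 32 members did not pass. At an unadjusted p under 0.05 there were 13 members, the 5 included, and none of them was higher. The share of all tested genes at that unadjusted level is not given here, so whether 13 is unusual cannot be read from it. DESeq2, another count test, called 9 members lower and none higher, adding Nedd9, Fermt3, Pxn and Rapgef1, where it called 5.5% of all genes lower. The median log2 fold change of the members, structured minus smooth, was -0.07, against 0.01 over all tested genes.

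The count of 5 moved with the libraries that entered. It was 6 without structured 3, 4 without smooth 1, 3 without smooth 2, smooth 4 or structured 1, 2 without smooth 3, and 1 without structured 2 or structured 4. The count over all genes moved too, from 440 lower to 427 without structured 3, 99 without structured 2 and 67 without structured 4. It was 2 after each library's trend on transcript GC content and exon length was taken out (1.29% of all genes then being called lower and 1.03% higher), 3 with a covariate for hepatocyte transcripts, and 4 without the 3 libraries of highest hepatocyte transcripts (structured 4, smooth 1 and structured 3). The fits that leave out libraries use fewer samples, and the covariate adds a term. The trend fit keeps all 8 libraries and the same 2 groups. There the log2 fold changes of Tln1, Git1 and Itgb7, which lost their calls, went from -0.22, -0.19 and -0.33 to -0.12, -0.12 and -0.30.

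**Figure D2:**
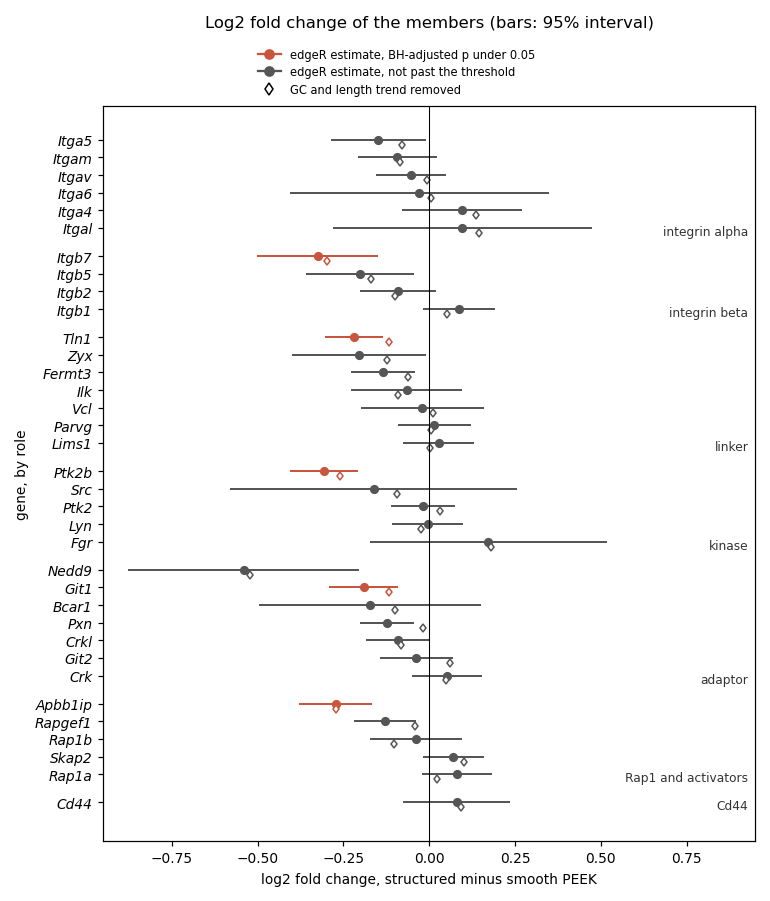
Log2 fold change, structured minus smooth, of 35 members by role, with the 95% interval as a bar and the estimate without the GC and length trend as an open diamond (Itgax and Parva, near 0 counts, are left out). The 5 members past the threshold, in red, lie between -0.19 and -0.33, and most other estimates lie within 0.2 of 0.

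In the deposited table Ptk2b (ENSMUSG00000059456) spans chromosome 14, 66153257 to 66281052, Tln1 (ENSMUSG00000028465) chromosome 4, 43531519 to 43562691, and Apbb1ip (ENSMUSG00000026786) chromosome 2, 22774094 to 22875653. Git1 (ENSMUSG00000011877) spans chromosome 11, 77493562 to 77507786, and Itgb7 (ENSMUSG00000001281) chromosome 15, 102215995 to 102231944. Coordinates of 30 of the 37 members were identical in GENCODE M21 (GRCm38), all 5 called genes included. Values are sums over whole genes, so no exon or UTR is resolved.

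The start-site regions of the called genes are shown because their transcripts fell together and 4 of the 5 have an entry among the RefSeq promoters (GRCm38.p6; 250 bases before and 50 after the start, gene strand, 5′ to 3′). Capitals mark GAGGAAG or its reverse complement CTTCCTC, letters found at sites of the myeloid factor PU.1, searched on both strands. Tln1 lies at chr4:43562534-43562833 (minus strand), Apbb1ip at chr2:22774077-22774376 (plus), Git1 at chr11:77493162-77493461 (plus, the listed start nearest to the table's) and Itgb7 at chr15:102231886-102232185 (minus).
Tln1: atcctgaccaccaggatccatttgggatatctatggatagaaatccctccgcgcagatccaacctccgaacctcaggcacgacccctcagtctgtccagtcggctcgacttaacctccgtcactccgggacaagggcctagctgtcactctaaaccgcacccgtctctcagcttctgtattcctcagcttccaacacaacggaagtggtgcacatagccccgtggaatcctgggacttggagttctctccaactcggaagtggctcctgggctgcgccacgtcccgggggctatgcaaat
Apbb1ip: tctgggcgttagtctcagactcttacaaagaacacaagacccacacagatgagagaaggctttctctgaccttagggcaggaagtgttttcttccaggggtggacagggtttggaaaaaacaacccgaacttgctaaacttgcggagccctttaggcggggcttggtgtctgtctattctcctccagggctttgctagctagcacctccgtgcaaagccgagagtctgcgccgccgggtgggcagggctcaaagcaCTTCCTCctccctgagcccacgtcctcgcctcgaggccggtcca
Git1: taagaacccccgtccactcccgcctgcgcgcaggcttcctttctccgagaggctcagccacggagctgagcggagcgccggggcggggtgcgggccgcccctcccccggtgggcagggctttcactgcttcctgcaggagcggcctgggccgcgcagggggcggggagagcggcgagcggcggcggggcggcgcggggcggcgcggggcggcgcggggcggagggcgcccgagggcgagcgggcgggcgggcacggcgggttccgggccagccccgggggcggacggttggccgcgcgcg
Itgb7: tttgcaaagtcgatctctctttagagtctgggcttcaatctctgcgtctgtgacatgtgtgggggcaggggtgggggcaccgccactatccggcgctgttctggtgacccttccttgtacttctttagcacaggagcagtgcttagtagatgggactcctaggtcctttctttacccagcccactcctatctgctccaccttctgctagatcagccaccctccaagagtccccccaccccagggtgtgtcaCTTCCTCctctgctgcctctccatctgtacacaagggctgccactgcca
Apbb1ip and Itgb7 held 1 match each, just after the start, with its first letter at bases 7 and 2 counted from 1 at the start, and Tln1 and Git1 held none in this window. Over the 28 members with an entry, 9 of 35 windows held a match (25.7%), against 13.6% of all 32851 windows. Itgam, not called, held 2. The GC content of the shown windows was 57.0%, 56.7%, 82.0% and 56.3% in the order above. These matches are letters in a window and say nothing of binding.

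Among the kinases, Ptk2b fell. PYK2, its product, is the calcium-responsive relative of focal adhesion kinase and is prominent in macrophages and osteoclasts. Smooth libraries 1 to 4 held 139.97, 144, 158 and 147 CPM and structured libraries 1 to 4 held 118, 116, 125 and 118 CPM. Every structured library lay below every smooth one. The log2 fold change was -0.31 ± 0.04 (SE; 95% interval -0.40 to -0.21; edgeR BH-adjusted p = 0.00759), a level 19.2% lower. The call held under all 23 alternative settings, with the highest edgeR BH-adjusted p at 0.0376 and log2 fold changes between -0.36 and -0.26.

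Its relative Ptk2 did not pass the test. Ptk2 had 113, 115, 122 and 115 CPM in smooth libraries and 118, 109, 114 and 118 CPM in structured libraries, with a log2 fold change of -0.02 (95% interval -0.11 to 0.07). The difference between the relatives was tested as a ratio within each library, where library scaling cancels. Ptk2b exceeded Ptk2 by 1.02 ± 0.02 on the log2 FPKM scale on smooth and by 0.73 ± 0.07 on structured PEEK (SD, n = 4 each). The ratio was lower in all 4 structured libraries (two-sided exact permutation p = 0.0286, the smallest that 4 against 4 allows; BH-adjusted over 13 ratios 0.0743). With so few libraries no ratio could fall below 0.05 after this adjustment unless at least 8 of the 13 reached the smallest p, and 5 did. The other 8 ratios had exact permutation p-values from 0.0571 to 1. Lyn, the main Src family kinase, had a log2 fold change near 0 with a 95% interval from -0.10 to 0.10, and Src and Fgr were too low for a narrow interval (-0.58 to 0.25 and -0.17 to 0.51).

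**Figure D3:**
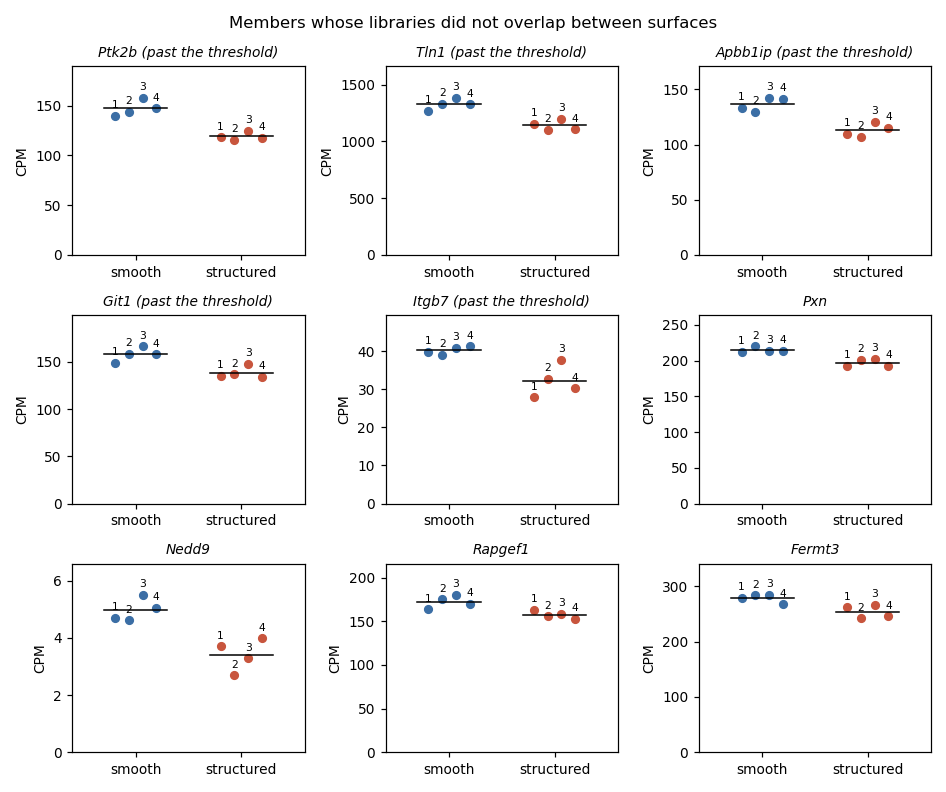
CPM in each library for the 9 members whose smooth and structured libraries did not overlap, with library numbers beside the points, the group mean as a line and the axis starting at 0. In all 9 the structured libraries lie lower, and structured 3 is the highest structured library in 7 of them.

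In the talin and kindlin group, Tln1 fell. Its values were 1267, 1330.1, 1384 and 1325 CPM in smooth libraries and 1152, 1104, 1198 and 1105 CPM in structured libraries, without overlap. The log2 fold change was -0.22 ± 0.04 (SE; edgeR BH-adjusted p = 0.0153), or 14.1% lower. Tln1 lost its call without structured 2 or structured 4 (edgeR BH-adjusted p = 0.0544 and 0.0614) and in the fit without the GC and length trend, where the log2 fold change was -0.12 (0.115). Fermt3, which encodes kindlin-3, the second activator at the beta tail in blood cells, held 279.5, 284, 284 and 268 CPM in smooth libraries and 262, 242, 267 and 246 CPM in structured libraries. The groups did not overlap in CPM, though they did in FPKM. The log2 fold change of -0.13 ± 0.04 did not pass (edgeR BH-adjusted p = 0.102).

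The other linkers gave no call. Vcl had a log2 fold change of -0.02 (95% interval -0.20 to 0.16) and Zyx of -0.20 (-0.40 to -0.01; edgeR BH-adjusted p = 0.237). The ILK, PINCH and parvin complex joins beta tails to actin beside talin. Its genes Ilk, Lims1 (PINCH-1) and Parvg had -0.07 (95% interval -0.22 to 0.09), 0.03 (-0.07 to 0.13) and 0.01 (-0.09 to 0.12). Vcl overlaps Ap3m1 on the opposite strand, and Ilk overlaps Taf10 and Rrp8. Each of these neighbours had more counts than the member, and whether the authors counted by strand is unknown, so reads could be shared there.

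Of the Rap1 switch genes, Apbb1ip fell. It encodes RIAM, which holds active Rap1 and talin together at the membrane. Smooth libraries held 133, 129.5, 142 and 141 CPM and structured libraries 109.7, 107, 121 and 115 CPM, without overlap. The log2 fold change was -0.27 ± 0.05 (SE; edgeR BH-adjusted p = 0.0157), or 17.2% lower, and it was the same without the GC and length trend (-0.27; edgeR BH-adjusted p = 0.0131). The call was lost, narrowly, without smooth 3, structured 2 or structured 4, with edgeR BH-adjusted p-values up to 0.0546.

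The GTPases themselves were not called. Rap1a had a log2 fold change of 0.08 (95% interval -0.02 to 0.18) and Rap1b of -0.04 (-0.17 to 0.09). Rapgef1, which encodes an exchange factor that loads Rap1, held 164, 175, 180.1 and 169.7 CPM in smooth libraries and 163, 155, 158 and 153 CPM in structured libraries. The groups did not overlap, with smooth 1 just above structured 1, and the log2 fold change of -0.13 ± 0.04 did not pass (edgeR BH-adjusted p = 0.1001). Skap2, an adaptor of macrophage integrin signalling, had 0.07 (95% interval -0.02 to 0.16).

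Among the adaptors, Git1 fell. GIT1 is a paxillin-binding GTPase-activating protein for Arf that carries the exchange factor beta-PIX to adhesions. Its values were 149, 158, 166 and 158 CPM in smooth libraries and 135, 137, 148 and 134 CPM in structured libraries. The groups did not overlap, and structured 3 lay just under smooth 1. The log2 fold change was -0.19 ± 0.04 (SE; edgeR BH-adjusted p = 0.0414), or 12.4% lower. The Git1 call held in 9 of 23 alternatives. It was lost in 6 of the 8 fits that each leave out 1 library (without smooth 2, smooth 3, smooth 4, structured 1, structured 2 or structured 4) and in the fit without the GC and length trend (-0.12; edgeR BH-adjusted p = 0.202). It was also lost without the filter on low counts (0.0935), in the 3 limma fits on FPKM and in both hepatocyte settings. Git2, its paralogue, had -0.04 (95% interval -0.14 to 0.07), and the Git1 to Git2 ratio was lower in all 4 structured libraries (-0.15 on the log2 scale; two-sided exact permutation p = 0.0286, BH-adjusted 0.0743). Git2 overlaps Ankrd13a on the opposite strand, a gene with more counts.

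Paxillin, the scaffold that Git1 and the kinases bind, showed a small separation. Pxn held 212, 219.9, 214 and 213 CPM in smooth libraries and 192, 201, 203 and 193 CPM in structured libraries. These values did not overlap, and the log2 fold change of -0.12 ± 0.03 did not pass (edgeR BH-adjusted p = 0.0731). Without the GC and length trend it was -0.02. Nedd9 had the lowest log2 fold change after Parva, from 4.70, 4.62, 5.50 and 5.04 CPM on smooth to 3.71, 2.68, 3.28 and 3.98 CPM on structured PEEK. The groups did not overlap, and at this low level the log2 fold change of -0.54 ± 0.15 did not pass (edgeR BH-adjusted p = 0.0759). Bcar1 had -0.17 with a 95% interval from -0.49 to 0.15. The small adaptors Crk and Crkl, which bind paxillin, p130Cas and the Rapgef1 product, had 0.05 and -0.09. Reads shared between such paralogues, Rap1a and Rap1b included, were not examined. The ratio of Crk to Crkl was higher in all 4 structured libraries (0.15 on the log2 scale; two-sided exact permutation p = 0.0286, BH-adjusted 0.0743).

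Among the integrin chains themselves only Itgb7 fell. Beta7 pairs with alpha4 in a receptor for MAdCAM-1 and VCAM-1. It held 39.9, 39.1, 40.9 and 41.3 CPM in smooth libraries and 27.9, 32.7, 37.7 and 30.3 CPM in structured libraries, so the structured libraries were lower and more spread. The log2 fold change was -0.33 ± 0.08 (SE; edgeR BH-adjusted p = 0.0480), or 20.2% lower. That call lay close to the threshold and held in 6 of 23 alternatives. It was lost with each library left out in turn but structured 3 (edgeR BH-adjusted p up to 0.140), without the GC and length trend (-0.30; 0.0757) with scaling by DESeq2 size factors (-0.32; 0.0512) or by totals alone (0.0550), without the filter on low counts (0.120), in the 3 limma fits on FPKM and in both hepatocyte settings.

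Against Itgb1, the other beta partner of alpha4, the ratio separated the surfaces. Itgb7 stood 1.65 ± 0.08 below Itgb1 on the log2 FPKM scale on smooth and 2.08 ± 0.21 below it on structured PEEK (SD, n = 4 each), without overlap (two-sided exact permutation p = 0.0286, BH-adjusted 0.0743). Itgb1 had a log2 fold change of 0.09 (95% interval -0.01 to 0.19), Itgb2 of -0.09 (-0.20 to 0.02) and Itgb5 of -0.20 (-0.36 to -0.05; edgeR BH-adjusted p = 0.139). For Itgb5, structured 3 at 47.1 CPM lay inside the smooth range of 46.0 to 48.4 CPM and the other 3 structured libraries lay at 37.2 to 42.0 CPM. Itgb5 passed only when structured 3, or the 3 libraries of highest hepatocyte transcripts, were left out.

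None of the 7 alpha chains was called by edgeR, voom, limma on FPKM or DESeq2, and Itga5 alone had an unadjusted edgeR p under 0.05. Itgam had a log2 fold change of -0.09 (95% interval -0.21 to 0.02), Itga4 of 0.10 (-0.08 to 0.27), Itgav of -0.05 (-0.15 to 0.05) and Itga5 of -0.15 (-0.28 to -0.01; edgeR BH-adjusted p = 0.218). Relative to its partner Itgb1, Itga5 was lower in all 4 structured libraries (-0.24 on the log2 scale; two-sided exact permutation p = 0.0286, BH-adjusted 0.0743). The ratio of Itgam to Itgb2 was 0.374 on both surfaces, and that of Itga4 to Itgb1 was 1.63 on both. Itga4 was most spread on structured PEEK, with 1308 CPM in structured 1 and 970 to 1119 CPM in the other 3. The Itgam interval contains the gene model Gm49368 on the same strand, whose count was 10.1% of that of Itgam, so reads between them are uncertain. Cd44 had 0.08 (95% interval -0.07 to 0.23).

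For the 21 uncalled members with a mean of at least 5 FPKM, every 95% interval lay within 0.4 of 0, the lowest bound being -0.36 and the highest 0.27. Larger shifts in these genes lie outside the intervals, and smaller ones were not resolved with 4 libraries a surface. For the 9 members whose groups did not overlap, 24.3% of the 37, the structured libraries were lower in all 9, where 7.03% of all tested genes separated in that direction and 5.19% in the other. Among genes with a mean of at least 10 CPM these were 8 of 29 members (27.6%) and 11% of all genes. On the FPKM scale 8 members were without overlap, and the share of all genes on that scale is not given here. Fermt3 overlapped there, with smooth 4 at 42.9 FPKM and structured 3 at 43.4 FPKM. Structured 3 was the highest structured library in 7 of the 9 and structured 2 the lowest in 5.

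Neutrophils, whose summed markers did not overlap between the surfaces, also express members of this set, for example Itgam, Itgb2, Fermt3 and Fgr. The other members, called ones included, were not sorted by expression in neutrophils. The log2 fold changes of these examples were -0.09, -0.09, -0.13 and 0.17 in that order, none called by edgeR, while DESeq2 called Fermt3 lower. The part of neutrophil and muscle transcripts in the 5 calls was not tested. With the hepatocyte covariate Ptk2b, Tln1 and Apbb1ip were called, while Git1 (log2 fold change -0.17, edgeR BH-adjusted p = 0.0980) and Itgb7 (-0.33, 0.0845) were not.

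Transcript composition varied with the fold changes. All 11 members with a GC content above 55% had negative log2 fold changes (median -0.17), against 11 of 18 with a GC content below 50% (median -0.02). Over all tested genes, 57.4% of those above 55% GC were negative and 43.4% of those below 50%. Across the 26 members with a mean of at least 5 FPKM, Pearson's r between GC content and log2 fold change was -0.68, and it was -0.13 across 7057 tested genes of that level. After the trend was removed, a setting for which no r or negative share over all genes is given, r over the 26 members was -0.48. All 11 members above 55% GC were negative in that setting too (median -0.10). These are descriptions over genes of the same libraries, which are not independent replicates. Apbb1ip (44.3% GC) and Ptk2b (52.9%) were called with the trend removed, and Tln1 (55.9%), Git1 (58.2%) and Itgb7 (58.1%) were not.

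**Figure D4:**
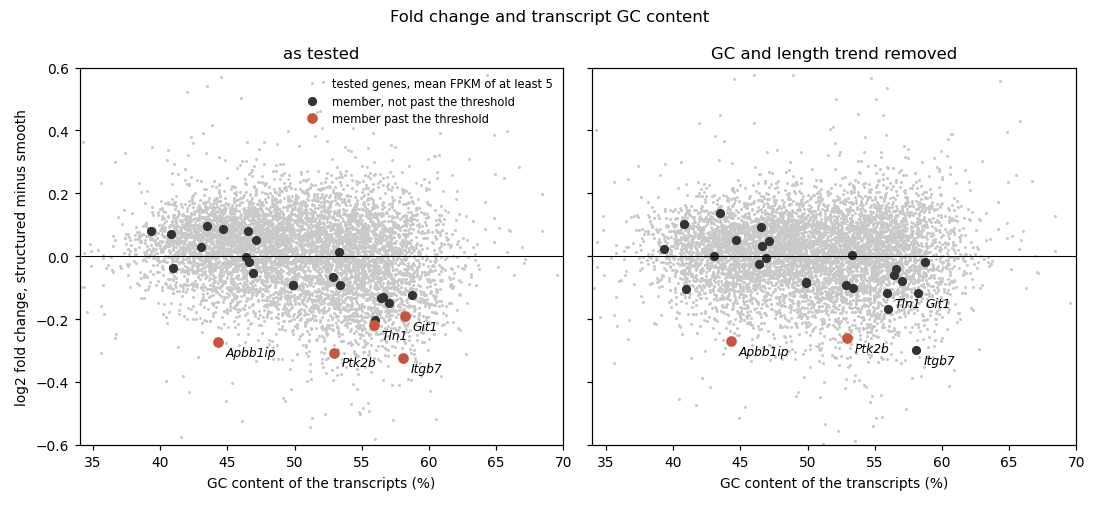
Log2 fold change, structured minus smooth, against transcript GC content for members with a mean of at least 5 FPKM (large points) and for tested genes of that level (grey), as tested on the left and with each library's GC and length trend removed on the right. On the left all members above 55% GC lie below 0 and 5 members pass, and on the right Apbb1ip and Ptk2b pass.

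Genes of the same pathway outside the members were taken from 6 lists of 131 genes. Of 118 tested, 10 fell and 1 rose. The 8.47% called lower stands beside 2.75% of all genes and 4.85% of genes with a mean of at least 10 CPM. The 118 were not selected by level. Fyb, which encodes ADAP, a partner of RIAM and the Skap adaptors, fell from 186, 201, 205 and 210.3 CPM on smooth to 152, 154, 176 and 159 CPM on structured PEEK. Its groups did not overlap, and the log2 fold change was -0.33 ± 0.05 (SE; edgeR BH-adjusted p = 0.0126; -0.32 without the GC and length trend). Of the 15 tested Rap1 switch genes outside the members it was the only 1 called. Of 23 alternatives it lost its call in 1, without structured 4 (edgeR BH-adjusted p = 0.0516).

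Of 28 further linkers 3 fell, with a median of -0.11. Actn1, the alpha-actinin that cross-links actin at adhesions, fell from 147 ± 4.19 to 123 ± 7.34 CPM (SD, n = 4 each), a log2 fold change of -0.26 ± 0.05. Fblim1, which encodes the kindlin and filamin binder migfilin, fell by 0.43 ± 0.10 and Parvb, the beta-parvin gene, by 0.23 ± 0.05 on the log2 scale. Of 26 further adaptors and exchange factors 3 fell. These were Arhgef7, which encodes the GIT1 partner beta-PIX (-0.18 ± 0.04), the Rac activator gene Elmo1 (-0.22 ± 0.05) and the Ras exchange factor gene Sos1 (-0.22 ± 0.05). Of 22 further kinases and phosphatases 2 fell, namely Syk, a kinase downstream of leukocyte integrins (-0.19 ± 0.04), and Pip5k1c, which makes the lipid that activates talin (-0.16 ± 0.04). Across these 8 genes the edgeR BH-adjusted p ran from 0.0170 to 0.0480. None of 7 tested further integrin subunits was called.

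The calls of these genes were fragile in different degrees. Actn1 was lost without smooth 3 or structured 4, and each of Fblim1, Parvb, Arhgef7, Elmo1, Sos1, Syk and Pip5k1c in at least 6 of the 8 fits that leave out 1 library. Without the GC and length trend 4 of the 10 were called, namely Fyb, Actn1, Elmo1 and Sos1. Of the 6 not called, Fblim1 then had -0.38, Parvb -0.19 and Slc3a2 -0.23, close to their values above, and Syk had -0.12, Arhgef7 -0.08 and Pip5k1c -0.08.

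Among 20 tested integrin partners and ligands Slc3a2 fell and Thbs1 rose. CD98 heavy chain, the Slc3a2 product, binds beta tails besides carrying amino acid transporters, and its gene had a log2 fold change of -0.25 ± 0.06. Thbs1, the gene of the matrix protein thrombospondin-1, held 0, 0.226, 0.0930 and 0.152 CPM in smooth libraries and 4.17, 0.634, 1.70 and 2.19 CPM in structured libraries. Structured 1 was the highest, and the groups did not overlap. The fitted log2 fold change of 4.17 ± 0.74 rests on smooth libraries at or below 0.226 CPM. It was 0.38 to 4.72 over the alternatives, and the call held in 13 of 23 alternatives. The call was lost in 9, among them the fits without smooth 3 or structured 4, with adjusted p up to 0.105, and DESeq2 gave no adjusted p. Slc3a2 lost its call in 6 of the 8 fits that leave out 1 library.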

How the data were processed

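RNA of RAW264.7 cells on smooth or structured PEEK was sequenced with a kit that marks strand and adds molecular identifiers, 4 libraries a surface. The submitters' processing notes list cutadapt 1.9 and HISAT2 2.2.1. Not given in the sources used here: which read counter was used, its use of strand and identifiers, the genome build and the annotation. Per gene, the authors deposited estimated counts (whole numbers) and FPKM, per the file headers. Low counts pile up at 4 (8018 values, against 3344 at 3), so 1 fragment may equal 4 units.

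Counts were tested over all genes, structured minus smooth, with edgeR 4.0.16 in R 4.3.3: filterByExpr (minimum count 10, keeping 16006 genes and dropping 10842), TMM, the two-sided quasi-likelihood test and Benjamini-Hochberg adjustment, threshold 0.05. CPM use TMM-scaled library sizes. Within-library ratios used deposited FPKM and an exact permutation test; of 15 planned ratios 2 had libraries at 0 and were not tested. GC content and union exon length came from GENCODE M21 (known for 99.9% of tested genes), and splines of 5 degrees of freedom took their trend out of each library. Alternatives added DESeq2 1.42.0 and limma 3.58.1 (voom, or log2 FPKM with pseudocounts 0.5, 0.1 and 1). The hepatocyte settings and the trend with a block were chosen after seeing the data. Scripts were tested on simulated data.

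The members and lists were chosen with earlier results of these data known. All 37 members are named, with per-library values for those called or not overlapping; of each other list, up to 4 called genes by smallest p, or the most abundant where none was called.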

Additional observations from a re-analysis of the deposited data

Results flagged for a closer look

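In 3 of 74 groups of 4 libraries, 1 library lay far from the other 3 by Dixon's ratio of its gap to the group's range, and chance gives about 1 group in 20. Itgb1 on structured PEEK had 193 CPM in structured 3 against 199.8 to 201 CPM in the others (ratio 0.892). Parvg on structured PEEK had 149 CPM in structured 2 against 169 to 172 CPM (ratio 0.896). Src on smooth PEEK had 4.94 CPM in smooth 3 against 4.25 to 4.34 CPM (ratio 0.872). None of the 3 genes was called.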

How the results depend on the processing

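No member was called higher under any of the 23 alternatives. The count of members called lower, 5 as reported, was 9 with DESeq2, 3 without a filter on low counts, 3 with limma on log2 FPKM at each pseudocount, 3 with the hepatocyte covariate, 2 without the GC and length trend, 2 without it and with the replicate block, and 1 to 6 with 1 library left out. The other settings gave 4 or 5. Over all genes, the 440 called lower became 142 without the filter, 207 without the trend, 157 without it and with the block, 880 with DESeq2, 124, 153 and 122 with limma at pseudocounts 0.5, 0.1 and 1, 227 with the hepatocyte covariate, 124 without the 3 libraries of highest hepatocyte transcripts, and 67 to 427 with 1 library left out. The 161 called higher became 47 without the filter, 91 without the trend and with the block, 553 with DESeq2, 67, 89 and 65 with limma, 62 without the 3 libraries, and 21 to 170 with 1 library left out. The causes were not tested; leaving out libraries also lowers the sample number.

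Same-numbered libraries had correlations of their deviations of 0.051, 0.399, 0.157 and 0.026. Differently numbered ones had -0.219 to 0.198. The same-numbered values were all positive and 0.399 was the highest of all, so these values do not exclude pairs. The titles name no pairs, and the main test took none. With the replicate block 374 genes were called lower, 125 higher and 5 members lower.

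Of 846 member values under alternatives 763 kept their direction and side of the threshold, 38 lost and 6 gained a call, and 39 changed sign, in 14 members that were not called. On the log2 scale these were, without the trend, Itga6 0.0047, Vcl 0.011 (0.0066 with the block), Ptk2 0.032 (0.032 with the block) and Git2 0.060 (0.060 with the block). With the hepatocyte covariate they were Itgax -0.17, Vcl 0.0013, Ilk 0.016, Lyn 0.018 and Rap1b 0.0091, besides Itga7 at -0.034. Without the 3 libraries they were Vcl 0.098, Parvg -0.045, Lims1 -0.035, Src 0.031, Crk -0.012 and Cd44 -0.021. With limma on FPKM at pseudocounts 0.5, 0.1 and 1, Lyn was at 0.0030, 0.0030 and 0.0029. With 1 library left out, Itgal ranged from -0.032 to 0.21, Itga6 from -0.20 to 0.10, Vcl from -0.0998 to 0.023, Ilk from -0.11 to 0.0017, Parvg from -0.0040 to 0.0597, Lims1 from -0.0038 to 0.054, Ptk2 from -0.033 to 0.0072, Lyn from -0.036 to 0.028, Rap1b from -0.095 to 0.00070 and Itga7 from -0.0079 to 0.083. The log2 ratio differences of Itgam to Itgb2 and of Itga4 to Itgb1 ranged from -0.045 to 0.028 and from -0.073 to 0.084. With 4 libraries a surface, Itgax and Parva (100 and 107 count units in all) allow no statement on change.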
